A study of Mus musculus with 16 samples.

Results

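Hox genes encode homeodomain transcription factors that give cells their positional identity along the body axis and within the limbs. The set described here is every measured gene whose symbol is Hoxa, Hoxb, Hoxc or Hoxd plus a number, with symbols assigned from the position of each gene start in RefSeq. It holds 6 of the 3925 measured genes: Hoxa2 and Hoxa3 on chromosome 6, and Hoxc6, Hoxc10, Hoxc11 and Hoxc13 on chromosome 15. RefSeq lists 39 mouse Hox genes; none of the Hoxb or Hoxd genes carried such a name among the measured windows.

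The study profiled histone marks by chromatin immunoprecipitation and sequencing (ChIP-seq) in endosteal mesenchymal stromal cells (MSCs), the stromal cells along the inner bone surface, from C57BL/6J mice. The WT group carried floxed Bap1 alleles (Bap1fl/fl) without a Cre, and the cKO group carried the same floxed alleles with Prx1-cre, a transgene active in limb bud mesenchyme and its descendants. Each genotype had 2 libraries for each of 4 marks, H2AK119ub1, H3K27me3, H3K4me3 and H3K27ac, which makes 16 libraries in 8 groups. The labels do not say that replicates came from separate animals, how many animals were pooled, how old they were or which bones gave the cells, so p-values measure the spread between libraries, which may be technical. Libraries are named by title throughout. In the antibody field the H3K4me3 and H3K27ac libraries are swapped relative to their titles. Counts within 1 kb of gene starts made up 58.4% to 66.2% of the window counts in the libraries titled H3K4me3 and 43.4% to 49.0% in those titled H3K27ac, a difference that does not by itself settle which field is right. The Bap1 locus itself was not analysed here.

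Hox genes are ordered along each cluster as they are used along the body, and stromal cells of the adult limb keep much of the Hox pattern of their embryonic origin. Polycomb complexes hold silent Hox genes under H3K27me3 and H2AK119ub1, while trithorax group enzymes place H3K4me3 at active ones, where H3K27ac also lies. BAP1 is the catalytic subunit of a complex that removes ubiquitin from H2AK119. In these clusters Hoxc13 lies at the 5′ end, is used late and posteriorly, and is known for its part in hair and nail; Hoxc11 and Hoxc10 act in the lumbosacral trunk and hindlimb. Hoxc6 acts further forward, in the thorax and forelimb region. Hoxa2 patterns the second pharyngeal arch and hindbrain, and Hoxa3 the third arch with its thymus and parathyroid.

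RefSeq promoter sequences (GRCm38.p6, from 250 bases before to 50 bases after the annotated start) were matched for 2 of the 6 genes. They are shown because these starts had opposite H3K4me3 levels in WT cells, and the capitals mark CG dinucleotides, which CpG-reading subunits of Polycomb and trithorax complexes recognise. Both lie on the minus strand, Hoxa2 at chr6:52164782-52165081 and Hoxa3 at chr6:52213018-52213317.
Hoxa2: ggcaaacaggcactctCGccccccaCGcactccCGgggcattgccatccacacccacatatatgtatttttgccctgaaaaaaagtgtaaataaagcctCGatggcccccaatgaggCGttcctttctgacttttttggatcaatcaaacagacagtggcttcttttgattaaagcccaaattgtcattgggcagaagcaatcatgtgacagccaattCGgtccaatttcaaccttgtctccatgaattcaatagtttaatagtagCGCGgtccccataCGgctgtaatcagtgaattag
Hoxa3: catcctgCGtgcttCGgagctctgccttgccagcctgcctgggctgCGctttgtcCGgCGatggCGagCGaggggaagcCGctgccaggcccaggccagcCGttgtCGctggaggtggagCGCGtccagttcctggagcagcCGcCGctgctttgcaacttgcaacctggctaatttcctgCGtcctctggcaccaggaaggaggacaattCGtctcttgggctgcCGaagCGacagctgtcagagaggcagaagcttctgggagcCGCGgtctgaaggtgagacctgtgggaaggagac

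The Hoxa3 promoter held 20 CG dinucleotides and a GC content of 64.0%, and the Hoxa2 promoter 9 and 45.7%. Over 32851 RefSeq promoters of the same length the median was 7.0 CG, which put Hoxa3 at percentile 73.5 and Hoxa2 at percentile 54.2. Motifs were searched on both strands, and positions are counted from the start, negative before it. TGATNNAT, a letter pattern of HOX-PBX pairs, occurred in 8.85% of promoters and in Hoxa2 at -111. TGACAG, the MEIS core, occurred in 19.2% of promoters, in Hoxa2 at -44 and in Hoxa3 at -13. TATAAA (13.6% of promoters) and TAATTA (5.29%) were not found in these 2 windows, and the matches listed did not overlap each other.

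Each gene was measured over 10 kb in 200 bins of 50 bp, 5 kb to each side of its start, and a promoter here is the 4 kb within 2 kb of it. Levels are in CPM, summed bin counts scaled to the TMM-adjusted total of the library, and they can be compared between genotypes within a mark but not between marks. Hoxa2 (ENSMUSG00000014704, promoter chr6:52162832-52166831) and Hoxa3 (ENSMUSG00000079560, promoter chr6:52211116-52215115) are transcribed from the minus strand. Hoxc13 (ENSMUSG00000001655, promoter chr15:102919103-102923102), Hoxc11 (ENSMUSG00000001656, promoter chr15:102952427-102956426), Hoxc10 (ENSMUSG00000022484, promoter chr15:102964796-102968795) and Hoxc6 (ENSMUSG00000001661, promoter chr15:102996257-103000256) are on the plus strand, in GRCm38 coordinates. From the Hoxc13 start, the starts of Hoxc11, Hoxc10 and Hoxc6 lie 33.3, 45.7 and 77.2 kb downstream. The Hoxc windows shared no bins with each other, and no promoter of the 6 genes shared bins with the promoter of another measured gene. The authors' deposited table marks every one of the 3925 measured genes, 1904 as UP and 2021 as DOWN. Hoxc6 is marked UP and the other 5 genes DOWN, and the sources used here do not give the contrast behind that mark. Shares, ranks and percentiles of mark levels and calls over all promoters, windows or segments refer to this marked set. They do not describe all genes of the genome.

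Summed bin counts per library ran from 1283020 in H3K27me3 to 10101047 in H3K4me3, or 429493 to 3371063 when 1 bin in 3 was counted so that each read counted about 1 time. Replicate libraries correlated across promoters with Pearson's r of 0.879 to 0.990 on log CPM, lowest in H3K27me3. Of 11 mesenchymal stroma markers 6 were measured, and H3K4me3 fell at 5 of them, against 32.6% of all promoters; its summed level over the 6 was 2339 to 2560 CPM in WT and 1099 to 1114 CPM in cKO. H3K27ac fell at 4 of these 6, against 29.1% of all promoters, from a summed 1701 to 1924 CPM in WT to 629 to 665 CPM in cKO. The only one of 10 blood markers measured, Lyz2, had 10.2 and 12.6 CPM of H3K4me3 in WT and 12.7 and 7.41 CPM in cKO, and was not called in any of the 4 marks. None of 6 endothelial markers was measured, so that cell type could not be checked. Of 4 chondrocyte markers 2 were measured, Sox9 and Comp, and H3K27ac rose at both, against 30.9% of all promoters, from a summed 377 and 453 CPM to 750 and 678 CPM. The 6 stroma markers all carry the authors' DOWN mark, and Sox9 and Comp carry the UP mark. These marker levels moved with genotype, and their part in the Hox results was not tested.

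In cKO cells the posterior Hoxc genes Hoxc13 and Hoxc11 carried 6.14 and 3.35 times the WT level of H3K27me3 over the promoter, and H3K4me3 and H3K27ac fell there by 5.10-fold to 10.3-fold. Hoxc10 and Hoxa3 had lower H3K4me3 and H3K27ac without a called change of H3K27me3. Hoxc6 kept high levels of both active marks at its start, and Hoxa2, a promoter with little H3K4me3 in WT, had a higher level in cKO. No Hox promoter was called in H2AK119ub1. Called means a Benjamini-Hochberg adjusted p of at most 0.05 from edgeR's quasi-likelihood test over all tested promoters.

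By mark, H3K27me3 was higher in cKO at 2 of 6 Hox promoters and lower at 0, against 12.4% of all 3883 tested promoters called higher and 15.6% called lower. H3K4me3 was lower at 5 of 6 and higher at 1, against 32.6% of 3905 promoters called lower and 40.1% called higher. H3K27ac was lower at 4 of 6 and higher at 0, against 29.1% of 3892 promoters called lower and 30.9% called higher. H2AK119ub1 was called at 0 of 6, against 33.1% of 3889 promoters called in either direction; 0 of 6 also had an unadjusted p under 0.05, and DESeq2 called 0. The median log2 change (cKO over WT) of the 6 promoters was 0.46 in H3K27me3, -0.76 in H3K4me3, -0.64 in H3K27ac and -0.24 in H2AK119ub1, beside medians of 0.03, 0.02, -0.00 and 0.02 over all tested promoters. With H3K4me3 scaled on the outer 1 kb flanks of the windows, the median of all promoters moved up by 0.41 and the split of all calls went from 1565 higher and 1273 lower to 1935 higher and 467 lower. The changes below are on the main scaling.

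**Figure D1:**
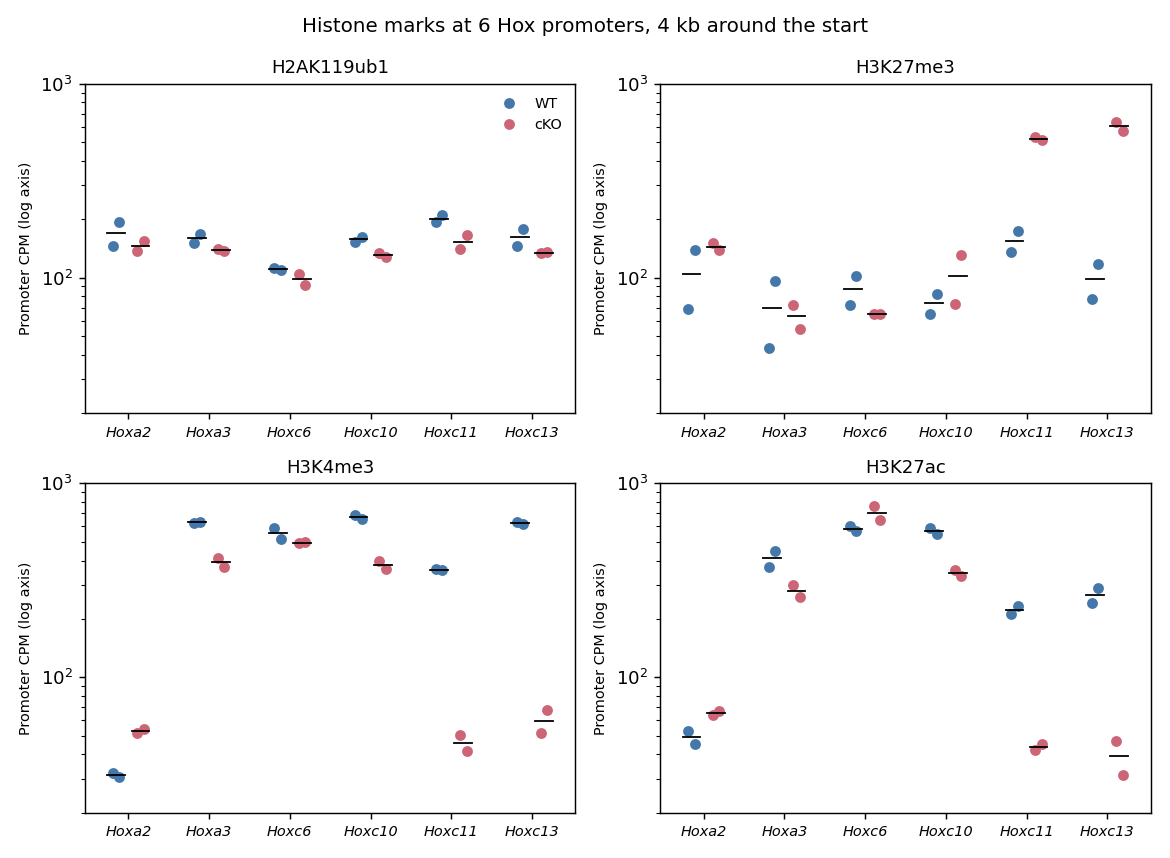
Promoter level in CPM (log axis) of the 6 Hox genes in each of the 4 marks; points are the 2 libraries of a genotype and bars their mean. At Hoxc13 and Hoxc11 the cKO libraries lie above WT in H3K27me3 (637 and 568 CPM against 77.6 and 118 CPM at Hoxc13) and far below it in H3K4me3 and H3K27ac.

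Of the 6 genes, Hoxc13 had the largest change of H3K27me3. Its promoter had 77.6 and 118 CPM of H3K27me3 in the WT libraries and 637 and 568 CPM in the cKO libraries. Every cKO library was far above both WT libraries, and the gene moved from percentile 61.9 of all promoters in WT to 99.9 in cKO. The rise was 6.14-fold (log2 2.62 ± 0.27 SE, n = 2 and 2, edgeR adjusted p = 6.05e-19) and ranked 2 from the highest of 3883 promoters. H3K4me3 there was 630 and 614 CPM in WT and 51.5 and 67.6 CPM in cKO. The level fell from among the highest to the lower part of all promoters, percentile 98.2 to 25.1, with no overlap. This drop was 10.3-fold (log2 -3.37 ± 0.10, edgeR adjusted p = 8.88e-236). H3K27ac went the same way, with 243 and 290 CPM in WT and 47.0 and 31.3 CPM in cKO, without overlap (6.78-fold lower, log2 -2.76 ± 0.21, edgeR adjusted p = 2.62e-13). Because these are bulk cells, fewer cells carrying a mark and less mark per cell cannot be told apart, here and at every gene below.

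Hoxc11, the next measured gene of the cluster, had 136 and 174 CPM of H3K27me3 in WT and 528 and 512 CPM in cKO. The groups were well apart, and the gene reached percentile 99.7 from 80.9. It rose 3.35-fold (log2 1.74 ± 0.26, edgeR adjusted p = 1.7e-09), 51 from the highest. H3K4me3 at Hoxc11 was 362 and 357 CPM in WT and 50.4 and 41.6 CPM in cKO. The WT libraries were close to each other and the cKO libraries far below them, 7.87-fold lower (log2 -2.98 ± 0.12, edgeR adjusted p = 2.9e-129). H3K27ac was 213 and 234 CPM in WT and 42.3 and 45.4 CPM in cKO, again with no overlap (5.10-fold lower, log2 -2.35 ± 0.20, edgeR adjusted p = 3.75e-12). In H3K4me3 and H3K27ac Hoxc13 ranked 20 and 15 from the lowest change of all tested promoters, and Hoxc11 40 and 41. The H3K27me3, H3K4me3 and H3K27ac calls of both genes held under all 15 alternatives run for each.

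Over the 20 measured genes nearest to these Hoxc genes the median log2 change was -0.58 in H3K27me3, -0.45 in H3K4me3 and -0.58 in H3K27ac. Relative to those neighbours the H3K27me3 change was 3.20 at Hoxc13 and 2.33 at Hoxc11. The H3K4me3 change relative to them was -2.92 and -2.53, and the H3K27ac change -2.18 and -1.77, in the same order of genes. Each of these 6 relative changes was called.

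Hoxc10 fell in both active marks and stayed well covered by them. H3K4me3 at its promoter was 687 and 658 CPM in WT and 399 and 362 CPM in cKO. The WT libraries were the higher ones without overlap, and the gene stayed in the upper part of all promoters, at percentile 98.9 and then 81.7. The drop was 1.77-fold (log2 -0.82 ± 0.07, edgeR adjusted p = 5.45e-30). H3K27ac was 592 and 547 CPM in WT and 356 and 333 CPM in cKO, lower in both cKO libraries (1.65-fold, log2 -0.72 ± 0.14, edgeR adjusted p = 2.83e-05). That H3K27ac call was lost within 1 kb of the start (log2 -0.32, edgeR adjusted p = 0.0691) and relative to the neighbouring genes (-0.15, edgeR adjusted p = 0.412). H3K27me3 was 64.6 and 82.4 CPM in WT and 72.8 and 130 CPM in cKO, so the groups overlapped and the promoter was not called (log2 0.46 ± 0.34, edgeR adjusted p = 0.332). Relative to the neighbouring genes, whose median was -0.58, it was called (1.04, edgeR adjusted p = 0.0143), and within 1 kb of the start it was -0.05 and not called.

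Hoxc6, the anterior gene of the measured Hoxc genes, kept high levels of both active marks over the promoter as a whole. The part of the promoter 2 to 0.5 kb before the start was lower in both, as given below. H3K4me3 was 588 and 517 CPM in WT and 490 and 499 CPM in cKO. All 4 libraries were high, at percentile 96.5 in WT, and the cKO values lay just under the lower WT value. The called difference was small (1.12-fold lower, log2 -0.16 ± 0.07, edgeR adjusted p = 0.0332), and it was called in only 1 of 4 fits that each left out 1 library (log2 -0.06 without WT replicate 1, -0.14 and -0.15 without cKO replicate 1 and 2). Its sign turned to 0.25 with flank scaling, 0.04 within 1 kb of the start and 0.30 relative to its neighbours. H3K27ac was 600 and 569 CPM in WT and 764 and 647 CPM in cKO. The cKO libraries were the higher ones, but the promoter was not called (log2 0.27 ± 0.13, edgeR adjusted p = 0.0748), although it was without cKO replicate 2 (0.42, edgeR adjusted p = 0.00199). It was also called higher within 1 kb of the start (0.51, edgeR adjusted p = 0.00547) and relative to its neighbours, whose median was -0.69 (0.96, edgeR adjusted p = 2.49e-07). H3K27me3 was 72.4 and 102 CPM in WT and 64.9 and 65.1 CPM in cKO, not called (log2 -0.42 ± 0.36).

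The Hoxa3 window lies around the annotated 5′ end of Hoxa3 and also overlaps Hoxaas3, Hoxa6, Mira and Hoxa7. Its promoter stretch overlaps Hoxaas3 and Mira, and the annotated Hoxa3 gene also reaches into the Hoxa2 window. Hoxa3 had 628 and 635 CPM of H3K4me3 in WT and 412 and 370 CPM in cKO. The cKO libraries were lower without overlap, and the gene went from percentile 98.5 to 83.1. The drop was 1.62-fold (log2 -0.69 ± 0.07, edgeR adjusted p = 2.34e-21), and with flank scaling it was -0.28 and not called (edgeR adjusted p = 0.0965). H3K27ac was 370 and 450 CPM in WT and 299 and 259 CPM in cKO, lower in both cKO libraries (1.47-fold, log2 -0.56 ± 0.15, edgeR adjusted p = 0.00173). Without WT replicate 2 this was -0.37 and not called (edgeR adjusted p = 0.146), and relative to its 20 nearest genes, whose median change was -0.58, it was 0.02. H3K27me3 at Hoxa3 was 43.1 and 95.6 CPM in WT and 72.2 and 54.2 CPM in cKO, with overlapping groups (log2 -0.14 ± 0.39, not called).

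Hoxa2 was the promoter of the set with the least H3K4me3 in WT, 32.2 and 30.7 CPM, at percentile 20.6 of all promoters. In cKO it had 51.5 and 54.3 CPM, above both WT libraries but still low, at percentile 23.7. The rise was 1.68-fold (log2 0.75 ± 0.24, edgeR adjusted p = 0.00295) and was called in each of the 4 fits without 1 library. H3K27ac there was 52.7 and 45.2 CPM in WT and 64.1 and 67.0 CPM in cKO, not called (log2 0.42 ± 0.27, edgeR adjusted p = 0.169). Relative to its 20 nearest genes, whose median change was -0.58, it was called (1.00, edgeR adjusted p = 0.00235). H3K27me3 was 68.9 and 139 CPM in WT and 150 and 139 CPM in cKO. Here WT replicate 1 alone was low; the promoter was not called with all libraries (log2 0.47 ± 0.28, edgeR adjusted p = 0.216) and was called without WT replicate 2 (1.07, edgeR adjusted p = 0.0131) and within 1 kb of the start (1.36, edgeR adjusted p = 0.00701). The fits without 1 library ran from 0.05 to 1.07.

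H2AK119ub1, the mark that BAP1 removes, had no called Hox promoter. In WT, 5 of the 6 promoters were between percentile 83.2 (Hoxc10) and 95.4 (Hoxc11) of all promoters, and Hoxc6 was at 52.4. Hoxc11 had the most, 193 and 209 CPM in WT and 140 and 166 CPM in cKO, with both cKO libraries lower (log2 -0.39 ± 0.20, edgeR adjusted p = 0.117). Hoxc13 had 145 and 178 CPM in WT and 134 and 135 CPM in cKO, also without overlap (log2 -0.27 ± 0.21, edgeR adjusted p = 0.325). The fitted changes of the 6 promoters ran from -0.39 to -0.18, with SE of 0.20 to 0.23, beside a median of 0.02 over all tested promoters. At none of the 6 did the difference pass the test, so neither a change of this size nor its absence is shown. The sign depended on the setting for Hoxa2 and Hoxa3, whose changes were 0.04 and 0.06 relative to their neighbours.

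Whether the genotype effect differed between marks was tested in a fit over all 16 libraries. The effect in H3K27me3 minus that in H3K4me3 was called positive at 3 of 6 Hox promoters, against 20.3% of all promoters. It was 6.00 ± 0.31 on the log2 scale at Hoxc13, 4.71 ± 0.27 at Hoxc11 and 1.28 ± 0.30 at Hoxc10, so the marks moved apart at Hoxc10 as well. H3K27me3 minus H3K27ac was called positive at the same 3 genes, against 23.2% of promoters, with 5.38 ± 0.32 at Hoxc13 and 4.09 ± 0.27 at Hoxc11 (edgeR adjusted p at Hoxc10 = 0.00197). It was called negative at Hoxc6 (-0.70 ± 0.28, edgeR adjusted p = 0.0408; 22.9% of promoters), a call that 12 of 19 alternatives lost, the values running from -0.92 to -0.43. H3K27me3 minus H2AK119ub1 was called at Hoxc13 (2.88 ± 0.31) and Hoxc11 (2.14 ± 0.26), against 6.22% of promoters called positive. So at these 2 genes the log2 rise of H3K27me3 was larger than the log2 change of H2AK119ub1 by that test. The fit shares a spread over marks at each promoter, and no input was used to compare how strongly each antibody enriched.

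**Figure D2:**
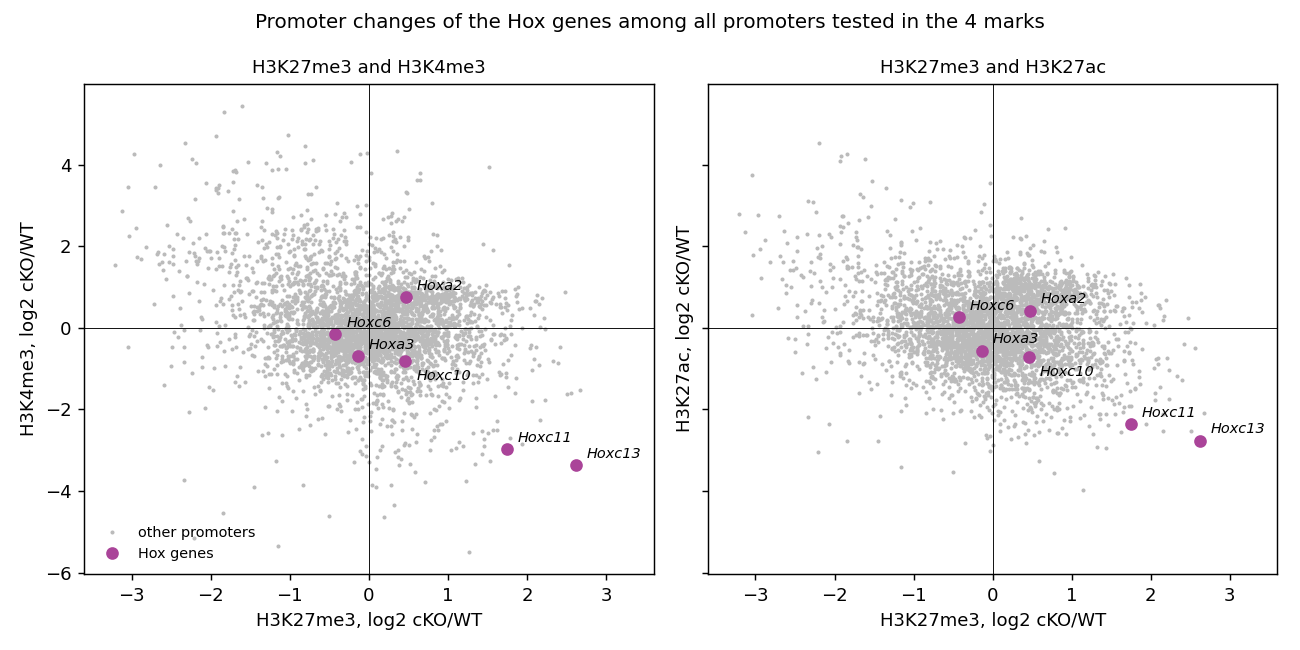
Log2 change (cKO over WT) in H3K27me3 on the horizontal axis against H3K4me3 (left) and H3K27ac (right) for all promoters tested in the 4 marks (grey) and the 6 Hox genes (purple). Hoxc13 (2.62 and -3.37) and Hoxc11 (1.74 and -2.98) lie at the lower right edge, and the other 4 Hox genes lie within the cloud.

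Over whole 10 kb windows, H3K4me3 was lower at 6 of 6 Hox genes, against 38.4% of all windows, and H3K27ac was lower at 5 of 6, against 33.6%. The Hoxa2 call in H3K4me3 was lost in 3 of 4 fits without 1 library (-0.20 without WT replicate 1, -0.24 and -0.23 without cKO replicate 1 and 2, edgeR adjusted p from 0.125 to 0.148), and the Hoxc6 call without WT replicate 1 (-0.15, edgeR adjusted p = 0.0768). Hoxc6 was the exception in H3K27ac, with 1334 and 1241 CPM in WT and 1423 and 1081 CPM in cKO. H3K27me3 was called higher at 3 of 6 windows, against 17.7%, and lower at 1 of 6, against 22.2%. The 3 were Hoxc13 (log2 1.93 ± 0.23), Hoxc11 (1.65 ± 0.22) and Hoxc10 (0.62 ± 0.20), and the lower one Hoxc6 (-0.67 ± 0.21). The Hoxc10 window had 184 and 222 CPM in WT and 286 and 341 CPM in cKO, without overlap, but was 0.50 and not called without WT replicate 1, and 0.51 and not called without cKO replicate 2. The Hoxc6 call was likewise lost without WT replicate 2 (-0.40), cKO replicate 1 (-0.61) or cKO replicate 2 (-0.69). H2AK119ub1 was lower at the Hoxc10 window (400 and 372 CPM in WT, 298 and 313 CPM in cKO, log2 -0.34 ± 0.13, edgeR adjusted p = 0.0362), against 25.2% of windows called lower. No fit without 1 library called that window (-0.39 to -0.28).

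Within the windows the change was uneven. Each window was split into 5 segments, giving 30 for the 6 genes, and levels are in CPM per kb. H3K27me3 was higher in 12 of 30 segments and lower in 0, against 4.74% of all segments called higher. H3K4me3 was lower in 20 and higher in 2, against 23.2% and 18.8%. H3K27ac was lower in 16 and higher in 1, so 17 of 30 were called, against 33.6% in either direction, and H2AK119ub1 was called in 0 of 30, against 10.5% in either direction, with 2 at an unadjusted p under 0.05.

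**Figure D3:**
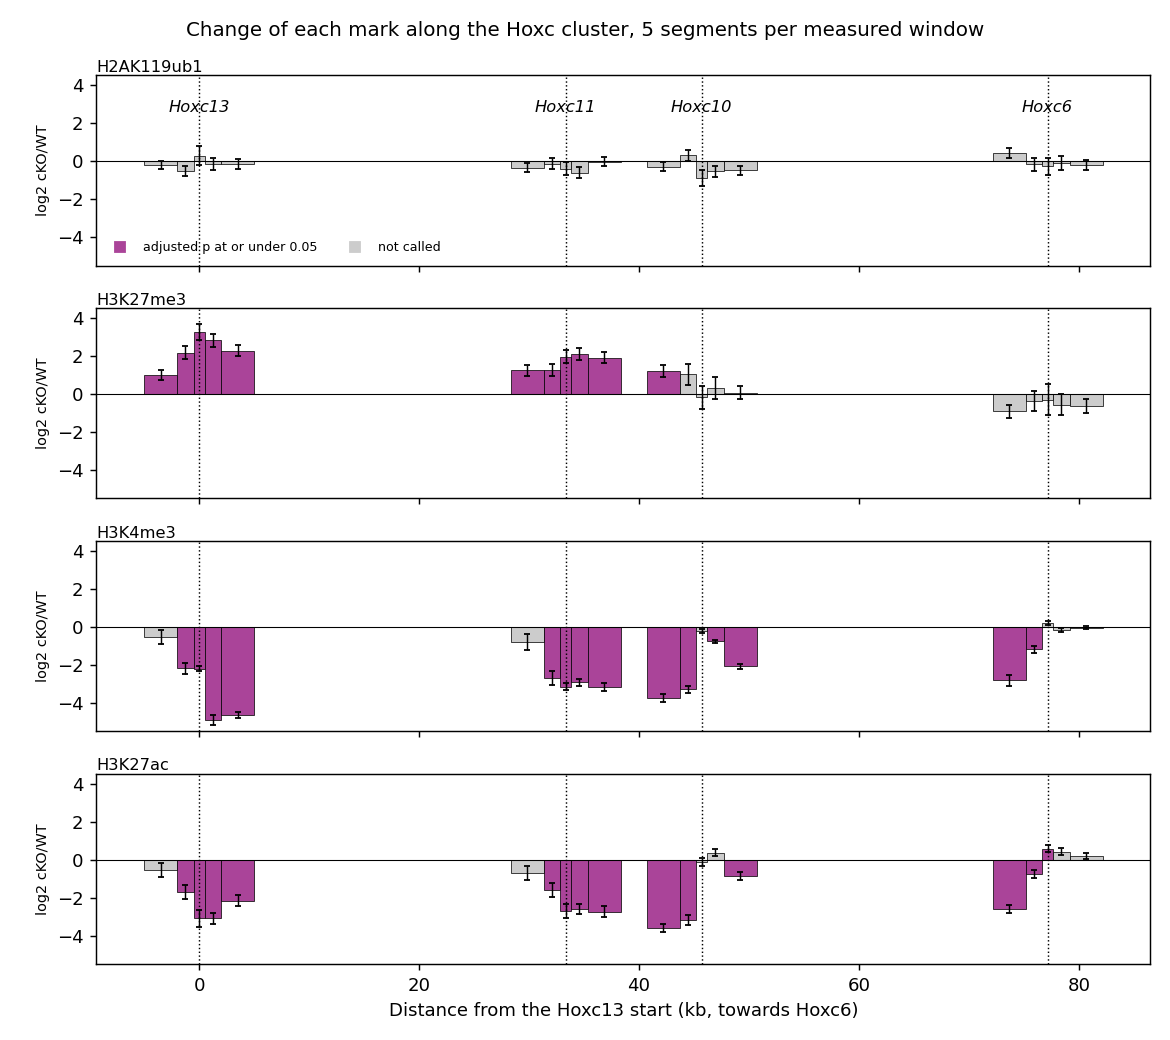
Log2 change (cKO over WT, bars, with SE) in the 5 segments of each Hoxc window, by distance in kb from the Hoxc13 start; purple bars were called and dotted lines mark gene starts. H3K27me3 is called higher in every segment of Hoxc13 and Hoxc11 and in the upstream flank of Hoxc10, and H3K4me3 and H3K27ac are called lower in the flanks before Hoxc10 and Hoxc6.

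At Hoxc13 H3K27me3 covered the whole window in cKO. The core, 0.5 kb to each side of the start, had 17.2 and 9.32 CPM per kb in WT and 149 and 104 CPM per kb in cKO (log2 3.26 ± 0.42, edgeR adjusted p = 1.5e-06). The core was the emptiest segment in WT and was filled in cKO. H3K4me3 fell most from 0.5 to 2 kb inside the gene, where WT had 265 and 279 CPM per kb and cKO 4.90 and 12.3 CPM per kb (log2 -4.90 ± 0.28, edgeR adjusted p = 5.51e-07). At Hoxc11 H3K27me3 was higher in all 5 segments, by 1.24 ± 0.29 in the upstream flank, 5 to 2 kb before the start, and by 2.09 ± 0.33 from 0.5 to 2 kb inside. Without cKO replicate 1 the outer H3K27me3 calls were lost in the Hoxc13 upstream flank (1.00, then 0.79) and the Hoxc11 segment 2 to 0.5 kb before the start (1.25, then 1.20).

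The spread of H3K27me3 can also be read as the number of 1 kb blocks, of 10 per window, that lie in the top 10% of their library. The Hoxc13 window had 1 and 3 such blocks in the WT libraries and 10 and 10 in the cKO libraries. Hoxc11 went from 0 and 1 blocks to 10 and 9. Hoxc10 went from 0 and 0 blocks to 2 and 2. These counts are given as descriptions. H3K4me3 blocks at Hoxc10 went from 8 and 7 in WT to 2 and 2 in cKO, and H3K27ac blocks at Hoxc6 from 10 and 10 to 6 and 6.

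At Hoxc10 the active marks fell most before the start, while the core was not called. The upstream flank had 108 and 112 CPM per kb of H3K4me3 in WT and 5.27 and 10.6 CPM per kb in cKO. Both cKO libraries were far below the WT ones (log2 -3.75 ± 0.23, edgeR adjusted p = 1.21e-07). H3K27ac in the flank went from 175 and 155 to 11.6 and 15.4 CPM per kb, with the groups far apart (log2 -3.61 ± 0.20, edgeR adjusted p = 9.75e-17). H3K27me3 was higher there, 19.2 and 22.0 CPM per kb in WT and 47.9 and 46.1 CPM per kb in cKO (log2 1.19 ± 0.32, edgeR adjusted p = 0.0104), a call lost without cKO replicate 1 (edgeR adjusted p = 0.0665). In the core H3K4me3 was 193 and 181 CPM per kb in WT and 166 and 154 CPM per kb in cKO, a small difference that was not called (log2 -0.22 ± 0.11, edgeR adjusted p = 0.0994). H3K27ac in the core was not called either (139 and 142 CPM per kb, then 130 and 129, log2 -0.12 ± 0.20). From 0.5 to 2 kb inside the gene H3K4me3 fell by 0.77 ± 0.09 on the log2 scale, while H3K27ac was 93.5 and 96.0 CPM per kb in WT and 138 and 106 CPM per kb in cKO and was not called (log2 0.37 ± 0.20). From 2 to 5 kb inside, H3K4me3 fell by 2.07 ± 0.13 on the log2 scale and H3K27ac by 0.85 ± 0.22, the latter not called without WT replicate 2 (-0.75). No RefSeq gene is listed in that flank.

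Hoxc6 had a similar boundary. Its upstream flank, over the 3′ end of Hoxc8, another trunk Hox gene, had 94.0 and 81.7 CPM per kb of H3K27ac in WT and 16.7 and 12.0 CPM per kb in cKO. Both cKO libraries were far lower (log2 -2.61 ± 0.22, edgeR adjusted p = 2.87e-12). H3K4me3 in the same flank went from 29.1 and 21.7 to 2.45 and 4.56 CPM per kb (log2 -2.82 ± 0.27, edgeR adjusted p = 1.82e-08). From 2 to 0.5 kb before the start, H3K4me3 fell from 72.2 and 57.6 to 30.6 and 26.7 CPM per kb (log2 -1.18 ± 0.18, edgeR adjusted p = 1.04e-05). H3K27ac there fell from 97.4 and 86.7 to 59.6 and 49.0 CPM per kb (log2 -0.76 ± 0.22, edgeR adjusted p = 0.0063). That H3K27ac call was lost without WT replicate 1 (-0.68) or cKO replicate 2 (-0.59). In the core H3K27ac was instead higher, 155 and 181 CPM per kb in WT and 259 and 244 CPM per kb in cKO (log2 0.58 ± 0.18, edgeR adjusted p = 0.0118). That core call was lost without WT replicate 1 (0.48) or cKO replicate 1 (0.54).

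The contrast between flank and core was tested by itself, in a test chosen after seeing the data. The share of window counts near gene starts, given above, was higher in cKO than in WT libraries of H3K4me3 and H3K27ac. The part of that difference in the contrast was not tested. In H3K4me3 the change in the upstream flank minus that in the core was called negative at 3 of 6 Hox windows, against 28.7% of all windows, and the median of all windows was -0.65. Hoxc10 (-3.62 ± 0.29, edgeR adjusted p = 1.9e-08) and Hoxc6 (-3.07 ± 0.36, edgeR adjusted p = 1.43e-06) were well below that median. The other was Hoxa2 (-3.01 ± 0.75), not called without WT replicate 2 (-2.35). It was called positive at Hoxc11 (2.33 ± 0.50) and Hoxc13 (1.70 ± 0.44), against 3.54% of windows, whose flanks were not called in H3K4me3; for Hoxc13 the call was lost without WT replicate 1 (1.24). In H3K27ac the contrast was called negative at Hoxc10 (-3.50 ± 0.26) and Hoxc6 (-3.21 ± 0.28), against 10.5% of windows. It was positive at Hoxc13 (2.80 ± 0.60) and Hoxc11 (1.98 ± 0.54), against 4.22%, the Hoxc11 call being lost without cKO replicate 2 (1.32). Here too the WT flanks of Hoxc13 and Hoxc11 were low, 9.34 and 11.6 CPM per kb of H3K27ac beside 86.1 and 60.1 in the cores. In H3K27me3 0 of 6 windows were called by edgeR, against 0.18% of all windows, with 2 at an unadjusted p under 0.05.

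**Figure D4:**
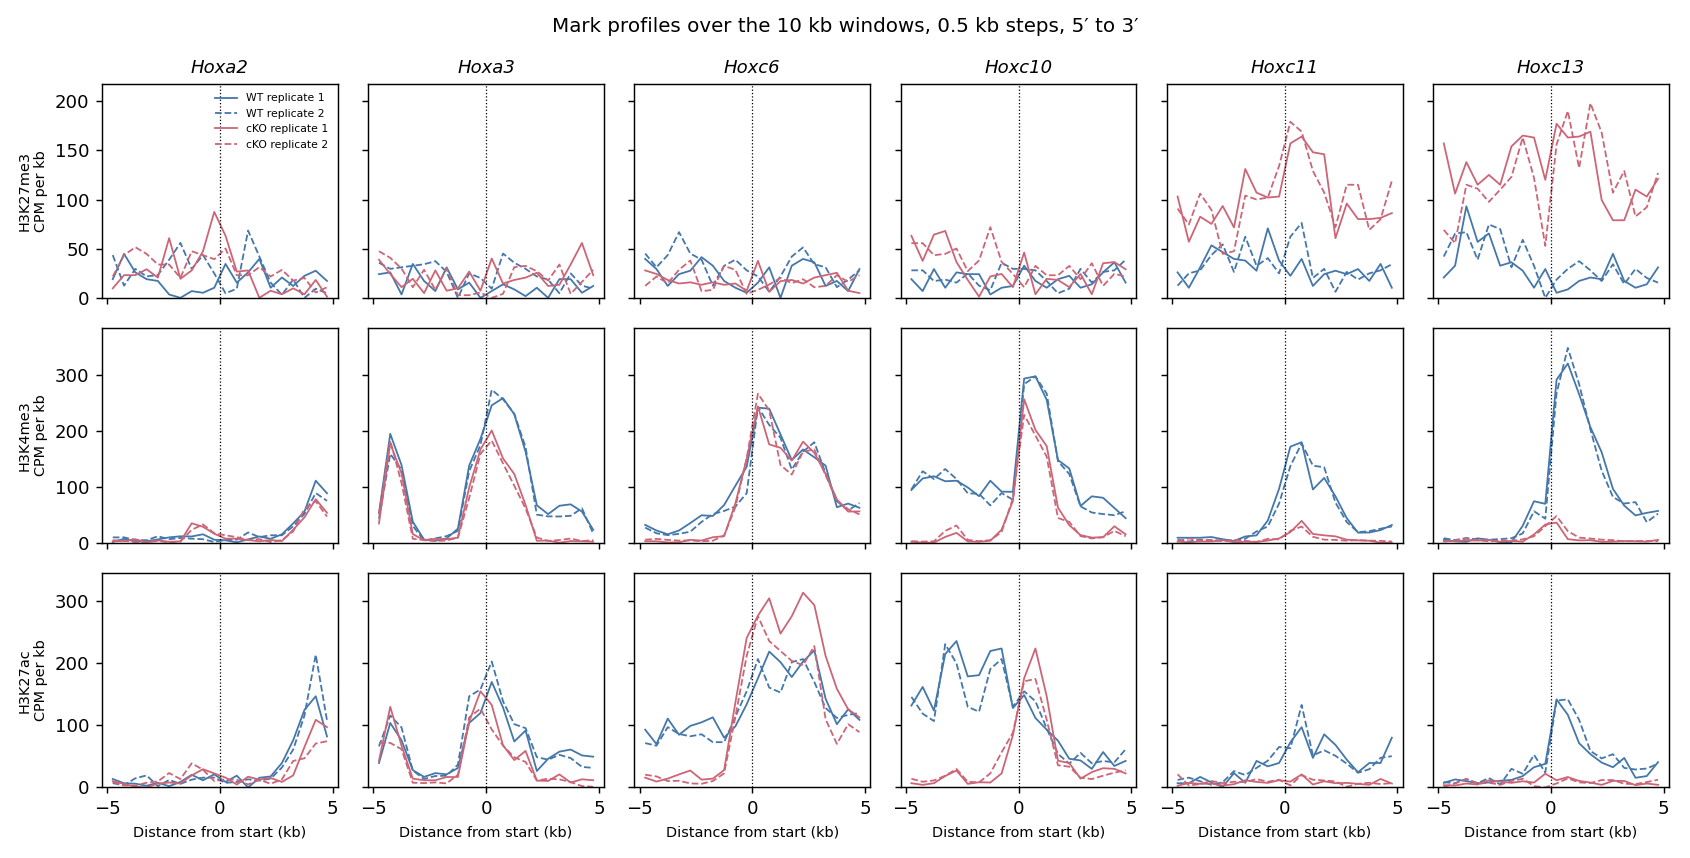
CPM per kb in 0.5 kb steps over the 10 kb windows, upstream to the left, for H3K27me3, H3K4me3 and H3K27ac (rows) at the 6 Hox genes (columns); blue lines are WT, red lines cKO, solid and dashed lines the 2 libraries. The cKO lines leave the WT lines upstream of the Hoxc10 and Hoxc6 starts in H3K4me3 and H3K27ac, and run above them across Hoxc11 and Hoxc13 in H3K27me3.

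In the Hoxa cluster the losses lay beside the starts of the 2 named genes. The gene-body start of Hoxa3, 2 to 5 kb inside, also holds the annotated start of Hoxa6 and had 50.2 CPM per kb ± 7.22 (SD, n = 2) of H3K4me3 in WT and 3.86 CPM per kb ± 2.06 (SD, n = 2) in cKO. Both cKO libraries were close to empty (log2 -3.64 ± 0.25, edgeR adjusted p = 4.67e-10). H3K27ac there fell from 48.8 and 43.0 to 12.5 and 8.37 CPM per kb (log2 -2.13 ± 0.26, edgeR adjusted p = 1.52e-08). In the Hoxa3 core H3K4me3 was 216 and 225 CPM per kb in WT and 184 and 171 CPM per kb in cKO, a smaller difference (log2 -0.31 ± 0.10) that was not called without WT replicate 2 (-0.28) or cKO replicate 2 (-0.23). Reads cannot be assigned to Hoxa3 or Hoxa6 where the 2 overlap.

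The gene-body start minus the core, tested in the same way, was called negative in H3K4me3 at 4 of 6 Hox windows, against 39.6% of all windows. Hoxa3 had the largest of these differences (-3.41 ± 0.35, edgeR adjusted p = 2.28e-06), the others being Hoxa2, Hoxc13 (-2.47 ± 0.32) and Hoxc10 (-1.84 ± 0.25), and the median of all windows was -0.82. In H3K27ac it was called only at Hoxa3 (-1.80 ± 0.33, edgeR adjusted p = 0.000804), against 14.7% of windows called in either direction. In H3K27me3 edgeR called 0 of 6, and 0 of 6 had an unadjusted p under 0.05, against 0.0% of all windows called.

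The Hoxa2 core was low in both H3K4me3 and H3K27me3 in WT and higher in both in cKO. H3K4me3 was 3.89 CPM per kb ± 1.17 (SD, n = 2) in WT and 13.3 CPM per kb ± 2.44 (SD, n = 2) in cKO (log2 1.78 ± 0.47, edgeR adjusted p = 0.00372), with the cKO libraries above the WT ones at a low level. H3K27me3 was 22.4 and 14.8 CPM per kb in WT and 75.2 and 44.7 CPM per kb in cKO (log2 1.69 ± 0.50, edgeR adjusted p = 0.0209), a call lost without WT replicate 2 (1.42) or cKO replicate 1 (1.30). Over the whole 10 kb window the Hoxa2 change was -0.25 in H3K4me3 and -0.53 in H3K27ac, opposite in sign to the promoter.

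Other measured windows in the Hoxa region are ENSMUSG00000038236, Gm15050 and Hotairm2. ENSMUSG00000038236 got no symbol from its position, so it is not counted among the 6 Hox genes. H3K4me3 fell at the promoter of ENSMUSG00000038236, whose 10 kb window holds the annotated Hoxa7 start, with a mean of 239 CPM ± 4.06 (SD, n = 2) in WT and 151 CPM ± 15.1 (SD, n = 2) in cKO (log2 -0.66 ± 0.11). It rose at Gm15050, a predicted transcript overlapping the Hoxa2 window, from 27.4 CPM ± 3.06 to 65.7 CPM ± 3.12 (log2 1.26 ± 0.23). H3K27ac fell at ENSMUSG00000038236 (log2 -0.86 ± 0.16) and was not called at Gm15050. In the core of ENSMUSG00000038236 the log2 change was -2.97 ± 0.30 in H3K4me3 and -2.86 ± 0.34 in H3K27ac. Hotairm2, which overlaps the Hoxa2 window, was called lower at its promoter in H3K4me3 (-0.35 ± 0.08) and H3K27ac (-0.61 ± 0.14). H3K27me3 and H2AK119ub1 were not called at any of these 3 promoters, with edgeR adjusted p from 0.0731 to 0.811.

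Counts of called genes in the 4 gene lists that follow are to be read against the shares over all tested promoters, 40.1% higher and 32.6% lower in H3K4me3, 30.9% and 29.1% in H3K27ac, 12.4% and 15.6% in H3K27me3, and 33.1% in either direction in H2AK119ub1. With 3 to 7 genes measured in a list, they are given as descriptions. Changes of the listed genes are not given relative to neighbouring genes, and a shift shared along a chromosome was not tested for them. Rara, Pcgf2 and Foxk2 lie on chromosome 11, and Cyp26b1 lies on chromosome 6. Pbx4 lies on chromosome 8, Meis3 on 7, Psip1 on 4, and Cbx6 on 15, the chromosome of the Hoxc genes. The same limit holds for every other gene named from these lists. Of 9 listed TALE homeodomain proteins, which bind DNA together with Hox proteins, 5 were measured. H3K4me3 rose at 3 of them and fell at 1 (median log2 0.21), H3K27ac rose at 1 and fell at 1 (0.11), H3K27me3 rose at 1 and fell at 2 (-0.01), and H2AK119ub1 fell at 1 (-0.05). Pknox2 and Pbx4 had higher H3K4me3 (log2 1.15 ± 0.09 and 1.14 ± 0.19) and lower H3K27me3 (-1.13 ± 0.30 and -1.63 ± 0.27). Meis3 changed in the opposite direction, with H3K4me3 at -0.57 ± 0.14 and H3K27me3 at 0.95 ± 0.31.

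Of 16 listed regulators of Hox activation 3 were measured. H3K4me3 rose at 1 and fell at 1 (median log2 0.59), H3K27ac rose at 2 and fell at 1 (0.99), H3K27me3 fell at 1 (0.10), and H2AK119ub1 rose at 1 and fell at 1 (0.43). Psip1, which encodes a chromatin reader that tethers the MLL complex, had higher H3K4me3 (0.95 ± 0.09) and H3K27ac (1.05 ± 0.16). Rara, a retinoic acid receptor, had higher H3K27ac (0.99 ± 0.29). Cyp26b1, which clears retinoic acid, was lower in all 4 marks, by -1.44 ± 0.22 in H2AK119ub1 and -1.17 ± 0.43 in H3K4me3.

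Of 38 listed Polycomb and BAP1 complex genes 7 were measured. H3K4me3 rose at 4 and fell at 1 (median log2 0.66), H3K27ac rose at 3 and fell at 2 (0.35), H3K27me3 rose at 3 and fell at 1 (0.60), and H2AK119ub1 rose at 2 and fell at 2 (0.35). Phf19, a PRC2 accessory factor, had lower H3K27me3 (-3.03 ± 0.28) and higher H3K4me3 (2.27 ± 0.14). Pcgf2, a PRC1 subunit, had higher H3K4me3 (0.90 ± 0.06) and H3K27me3 (1.72 ± 0.33), and also higher H3K27ac (0.77 ± 0.14) and H2AK119ub1 (0.71 ± 0.20). Cbx6, a Polycomb chromodomain protein, had lower H3K4me3 (-1.02 ± 0.10), and Foxk2, a BAP1 partner, higher H3K4me3 (0.66 ± 0.08).

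Of 22 listed limb patterning genes 5 were measured. H3K4me3 rose at 1 and fell at 2 (median log2 0.03), H3K27ac fell at 3 (-0.52), H3K27me3 rose at 2 (0.77), and H2AK119ub1 was not called, with edgeR adjusted p from 0.232 to 0.660 (0.22). Shox2, which acts in the proximal limb, fell in H3K4me3 (-0.87 ± 0.07) and H3K27ac (-1.62 ± 0.18) and rose in H3K27me3 (1.06 ± 0.34). Msx2, a limb and skull homeobox gene, did the same (-0.72 ± 0.09, -1.20 ± 0.19 and 0.80 ± 0.28). Gli3, the Hedgehog pathway factor that sets digit number, fell in H3K27ac (-0.52 ± 0.14), and Tbx18 rose slightly in H3K4me3 (0.17 ± 0.08).

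Likeness of pattern was measured as the Euclidean distance over the 4 log2 promoter changes among 2977 named promoters that share no bins, from the same 16 libraries. The 3 promoters nearest to Hoxc11 were Pparg (distance 0.23), the regulator of adipocyte formation, Wnt10b (0.41), a Wnt ligand, and Abcg1 (0.73), a cholesterol exporter. The same 3 were nearest to Hoxc13, at 0.94, 1.39 and 1.49. Pparg had log2 changes of 1.94 in H3K27me3, -2.86 in H3K4me3 and -2.37 in H3K27ac. The nearest to Hoxc10 were Pecr (0.25), Epb41l1 (0.27) and Hilpda (0.28), and the nearest to Hoxa3 were Ephb6 (0.20), Tprkb (0.21) and Oscp1 (0.22).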

How the data were processed

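Raw read counts in 50 bp bins, 200 around each of 3925 gene starts, were deposited by the authors, per the file headers. GRCm38 is the build in the submitters' processing notes, which also list bedtools 2.30.0, SAMtools 1.9, Picard 2.25.5, Bowtie2 2.4.5 and cutadapt 1.18 without settings. Short isolated runs of bins with 1 count were looked at in replicate 1 of H2AK119ub1 and H3K27me3 in both genotypes. Of these short runs 98.2% were 3 bins long, so summed bins hold each read about 3 times. Input libraries were not used here, and some genes are not reported here. Symbols were taken from RefSeq (GRCm38.p6) for a gene start within 500 bp of the window centre, which named 3416 of 3925 genes (87.0%).

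Bins were summed over the promoter (2 kb to each side), the window and 5 segments. Library size was the autosomal bin sum with TMM factors from autosomal windows (0.94 to 1.041). Each mark was tested by genotype with edgeR 4.0.16 (R 4.3.3, quasi-likelihood, filterByExpr at a minimum count of 10), 2 libraries per group, with Benjamini-Hochberg adjustment over all features and a threshold of 0.05. Differences between marks used all 16 libraries. On simulated counts with 200 promoters changed by 1.5 on the log2 scale, edgeR recovered 199 in H2AK119ub1, 172 in H3K27me3, 194 in H3K4me3 and 194 in H3K27ac.

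Alternatives were DESeq2 1.42.0, other scalings, no filter, other promoter widths, 1 bin in 3, a joint fit, the replicate block, each library left out, and change relative to 20 neighbours. The Hox genes, the gene lists (TALE cofactors, Hox activation, Polycomb and BAP1, limb patterning, cell markers) and the tests were chosen with earlier results of these data known. Named from each list were at most 4 members of lowest p over the marks, and the 3 most alike promoters for a Hox gene called in at least 2 marks. Library totals cover these windows only and limit precision most in H3K27me3.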

Additional observations from a re-analysis of the deposited data

How the results depend on the processing

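The H3K27me3, H3K4me3 and H3K27ac calls at Hoxc13 and Hoxc11 kept their direction and their side of the threshold under all 15 alternatives each; their promoter changes ran from 1.93 to 3.20 and 1.57 to 2.33 in H3K27me3. Summing the whole 10 kb window changed the number of Hox genes called to 1 in H2AK119ub1, to 4 in H3K27me3 and to 5 for H3K27me3 minus H3K4me3. Leaving out 1 library moved the H2AK119ub1 change at the Hoxc10 window between -0.39 and -0.28. The H3K27me3 change came down to 0.50 at the Hoxc10 window and to -0.40 at the Hoxc6 window. The H3K27ac difference of gene-body start minus core at Hoxa3 ran from -2.05 to -1.55. The promoter changes that turned sign in the whole window were Hoxa3 H3K27me3 (0.16), Hoxa2 H3K4me3 (-0.25), Hoxa2 H3K27ac (-0.53) and Hoxc6 H3K27ac (-0.04). Within 1 kb they were Hoxc10 H3K27me3 (-0.05) and Hoxc6 H3K4me3 (0.04), and with flank scaling Hoxc6 H3K4me3 (0.25). Relative to neighbours they were Hoxa2 and Hoxa3 H2AK119ub1 (0.04 and 0.06), Hoxc6 H3K27me3 (0.16), Hoxc6 H3K4me3 (0.30) and Hoxa3 H3K27ac (0.02). With 1 library left out Hoxa3 H3K27me3 ran from -0.59 to 0.55, and was 0.55 without WT replicate 2 and 0.07 without cKO replicate 2. The cause was not tested, beyond the other stretch that a window of another width sums. Over all promoters, H2AK119ub1 calls went from 1287 to 36 without cKO replicate 1, 241 without cKO replicate 2, 607 within 1 kb and 439 relative to neighbours, and H3K27me3 calls from 1087 to 630 and 682 without cKO replicate 1 and 2 and to 703 within 1 kb.

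Replicate numbers are names only; deviations of same-numbered libraries correlated at -0.011 in H2AK119ub1, -0.039 in H3K27me3, 0.099 in H3K4me3 and 0.061 in H3K27ac, and the labels do not pair them. With the replicate block the Hox promoters called were 0 in H2AK119ub1, 2 in H3K27me3, 6 in H3K4me3 and 4 in H3K27ac, and the number of all promoters called was 1265, 1023, 2873 and 2382. The block ended the Hoxc6 call in H3K27me3 minus H3K27ac (-0.68, edgeR adjusted p = 0.0507). The SE of a Hox promoter change was 0.20 to 0.23 in H2AK119ub1 and 0.26 to 0.39 in H3K27me3, the marks with the fewest reads, which limits the differences that could be detected there.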
